A study of Mus musculus with 8 samples.

Results

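Genes that encode chromatin modifiers were followed in the mouse insulinoma line MIN6-K8, which secretes insulin, after growth in selenomethionine (SeMet), a form of methionine that carries selenium instead of sulfur. They were chosen by name. A gene of the deposited table was taken if its mouse symbol began with 1 of 20 family names (Kdm, Kmt, Setd, Hdac, Sirt, Smarc, Chd, Brd, Arid, Dnmt, Tet, Ezh, Prmt, Kat, Ing, Phf, Cbx, Hist, Baz or Suv), and 29 of the 3278 genes in the table met this rule. The series holds 8 RNA sequencing libraries of this wild-type line, whose background strain the labels give as IT6. In 4 libraries the cells had been exposed to 40 µM SeMet for 6 days, and in the other 4 they were untreated (control). The labels do not state whether a group's libraries are separate cultures, so p-values weigh differences against a spread between samples that may be technical. The table is named as a list of differentially expressed genes, so every gene in it had already been chosen for differing between these groups. The results below describe the size, direction and precision of the differences, and a gene's presence in the table is not independent evidence of a response.

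DNA in the nucleus is wrapped around histone proteins, and enzymes add or remove methyl and acetyl groups on the histones. Reader proteins bind these marks, remodelling complexes move or evict nucleosomes with energy from ATP, and Polycomb proteins use methylation of histone H3 at lysine 27 to keep genes silent. Many of these enzymes depend on small metabolites. Histone and arginine methyltransferases use S-adenosylmethionine, which is made from methionine, while the Jumonji demethylases need oxygen, iron and 2-oxoglutarate, acetyltransferases need acetyl-CoA and sirtuins need NAD. In beta cells, chromatin regulators help to hold the identity programme and silence genes of other cell types.

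Values are normalised counts, read here as counts per gene divided by a size factor for each library. Read in this way, the listed genes would hold 8544454 to 11144953 reads in a library, most in control 4, although the recovered reads failed a check on low values in most libraries. Cell markers were looked up in the table. This cannot test the label of the line, since a marker is listed only if it differed between the groups. Of 16 beta cell markers 15 were in the table, 2 higher and 13 lower under SeMet. Pcsk1, a proinsulin convertase, and Slc30a8, the zinc transporter of insulin granules, changed most, with log2 fold changes (± SE) of -0.61 ± 0.05 and -0.39 ± 0.04. Ins2 was at 1169266 ± 54381 normalised counts in SeMet cells and 1372588 ± 82803 in controls (mean ± SD over 4 libraries, as for later values with ±). Of 8 markers of other islet cells, Gcg, Ppy and Irx2 were in the table and higher, and their summed level was 1268 to 1426 in SeMet libraries and 765 to 860 in controls. No acinar, endothelial or immune marker was among the genes analysed here, which does not show whether they were expressed. The duct marker Krt7 was higher (11248 and 10118 normalised counts in SeMet and control cells), and the stromal marker Col1a1 was near 0 in both (5.48 and 16.2). In bulk RNA fewer cells of a type and less RNA per cell cannot be told apart, and the part of these shifts in the results below was not tested.

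Most of the chromatin modifier genes in the table were lower in SeMet-treated cells, by small amounts. Of the 29 members, 7 rose and 22 fell, and the median log2 fold change was -0.18, against -0.13 over all listed genes. All 5 lysine demethylases and both lysine acetyltransferases fell, whereas the methyltransferases Suv39h2, Prmt1 and Setd7, the deacetylase Hdac2, the remodelling ATPase Smarca2, a histone H4 gene and the splicing factor gene Phf5a rose. The extremes were Kdm6b, at -0.55 ± 0.07 on the log2 scale (± SE from here on for fold changes), and Suv39h2, at 0.32 ± 0.09. The test was limma on log2(value + 1) over all 3278 genes, a scale that understates the change of low genes, with Benjamini-Hochberg adjusted p-values and a threshold of 0.05. All 29 members passed, but so did 100% of the listed genes to 3 significant digits, 47.0% as higher and 53.0% as lower, so that passing says nothing about these families. With the adjustment run over all 55450 annotated genes, 7 members rose and 16 fell, which is 79.3% of the members. Over all listed genes 71.4% passed that adjustment, 33.1% higher and 38.2% lower. These shares are the background for every count of passing genes given below.

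**Figure D1:**
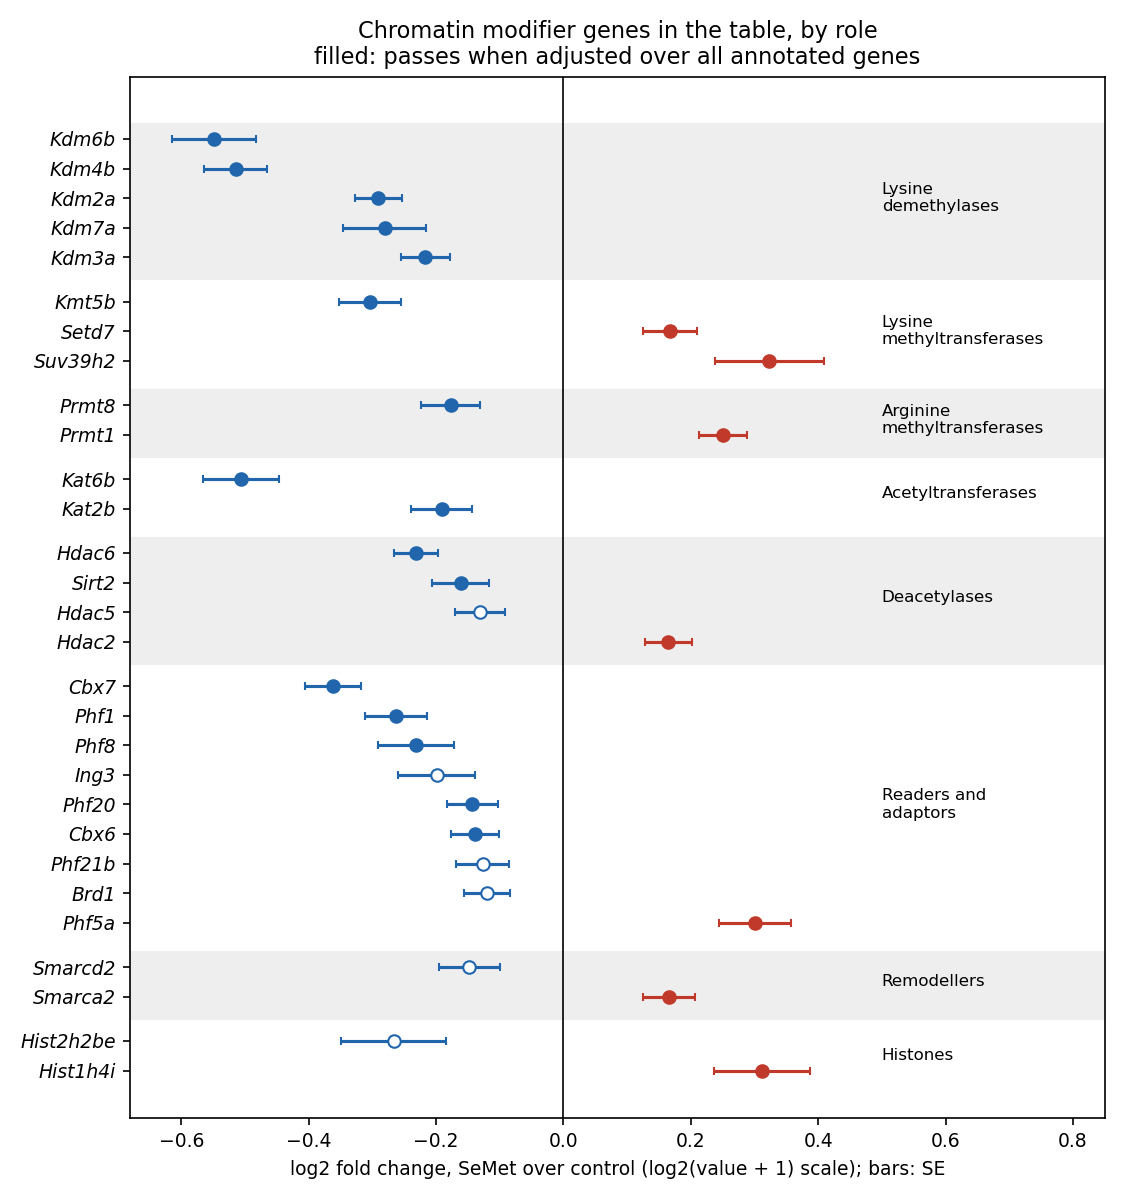
Log2 fold change of SeMet over control (x axis, log2(value + 1) scale) for the 29 members (y axis), grouped by role, with bars for the SE; red is higher and blue lower in SeMet libraries. Filled points passed the adjustment over all annotated genes, open points did not; all 5 lysine demethylases lie left of 0 between -0.55 and -0.22.

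In size these differences were near those of the whole table. The median absolute log2 fold change was 0.23 over the members and 0.25 over all listed genes. No member reached 1.5-fold on this scale, a difference that 15.8% of the listed genes exceeded. Libraries of a group were close to each other, and the median coefficient of variation of the members was 3.56% in SeMet and 4.05% in control libraries, against 4.94% and 5.36% over all listed genes. The members also had a higher median level, 1793 normalised counts against 1010 over all listed genes. The part of this level in their spread and in the separation of the groups was not tested. For 28 of the 29 members the SeMet and control libraries did not overlap, and this held for 85.8% of all listed genes. The exception was Prmt8. Of the 227 annotated protein-coding genes that fit the name rule 12.8% were listed, against 14.2% of all 21951 protein-coding genes. This order turns on the clustered histone genes, since without them 27 of 160 were listed, or 16.9%.

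**Figure D2:**
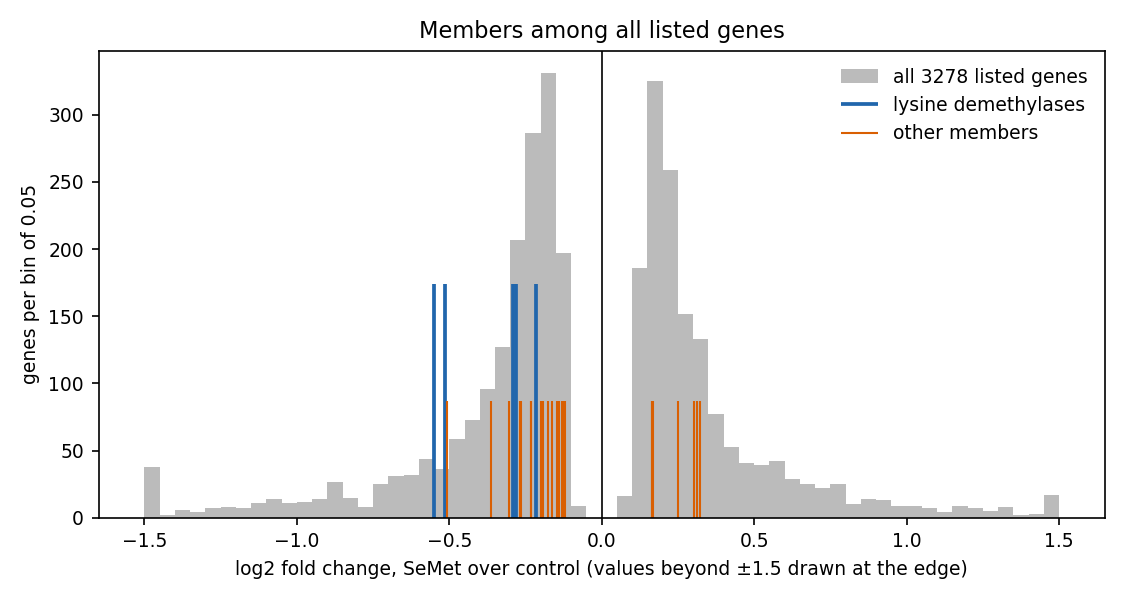
Number of genes (y axis, bins of 0.05) by log2 fold change of SeMet over control (x axis) for all 3278 listed genes in grey, with the 5 lysine demethylases as tall blue lines and the other members as short orange lines. The members sit within the bulk of the listed genes, and none passes 1.5-fold.

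Families differed in how many of their genes were listed. The lysine demethylases had 5 of 18 annotated genes in the table, the PHD finger genes named Phf 5 of 22, the histone deacetylases 3 of 11 and the Cbx genes 2 of 8. Of 67 clustered histone genes 2 were listed. No gene of the Chd, Arid, Baz, Dnmt, Tet or Ezh families was among the genes analysed here, and these include the DNA methyltransferases and the catalytic subunits of Polycomb repressive complex 2.

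All 5 listed lysine demethylases fell. They are Jumonji enzymes, which strip methyl groups from histone lysines in a reaction that uses oxygen, iron and 2-oxoglutarate. Kdm6b (ENSMUSG00000018476, chromosome 11, 69398508 to 69413675), which removes the silencing methylation of H3 lysine 27 and is also known as JMJD3, had 1535, 1649, 1731 and 1713 normalised counts in SeMet libraries 1 to 4, against 2552, 2742, 2252 and 2182 in controls 1 to 4. Every SeMet library lay well below the lowest control, and the mean fell by 31.9%, to 1657 ± 88.9 in SeMet cells, against 2432 ± 262 in controls. Its log2 fold change of -0.55 ± 0.07 had a limma adjusted p of 7.56e-06, or 0.000128 over all annotated genes.

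Kdm4b (ENSMUSG00000024201, chromosome 17, 56326062 to 56402870), a demethylase of trimethylated H3 lysine 9, held 1958, 2077, 2001 and 1851 normalised counts under SeMet and 2903, 3055, 2748 and 2578 without it. The groups were separated by a wide gap, with a log2 fold change of -0.51 ± 0.05 and a limma adjusted p of 7.1e-08, the smallest among the members. In human cells KDM4B and KDM3A are known targets of the hypoxia-inducible factors. Kdm3a (ENSMUSG00000053470, chromosome 6, 71588972 to 71632990), which acts on mono- and dimethylated H3 lysine 9, was at 2737, 2838, 2864 and 2655 in SeMet libraries and at 3300, 3292, 3219 and 3081 in controls. This was the smallest change of the family, with a log2 fold change of -0.22 ± 0.04.

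Kdm2a, which binds CpG islands and demethylates H3 lysine 36, was at 3467, 3446, 3515 and 3529 normalised counts in SeMet libraries and 4470, 4341, 4201 and 4071 in controls. Its SeMet libraries were tightly grouped (SD 39.0) and all below the controls, and its log2 fold change was -0.29 ± 0.04. Per kilobase of annotated exon Kdm4b had the highest level of the family (403 normalised counts per kilobase in SeMet cells and 576 in controls) and Kdm7a the lowest (189 and 230). Kdm7a, which acts on dimethylated H3 lysines 9 and 27, had 1717, 1867, 2048 and 1959 normalised counts under SeMet, against 2592, 2370, 2141 and 2132 in controls. Here the groups only just failed to touch, between 2048 in SeMet library 3 and 2132 in control 4, and the log2 fold change was -0.28 ± 0.07 (limma adjusted p over all annotated genes = 0.0228). In all 5 genes the highest value was in control 1 or control 2 and the lowest control was control 4.

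**Figure D3:**
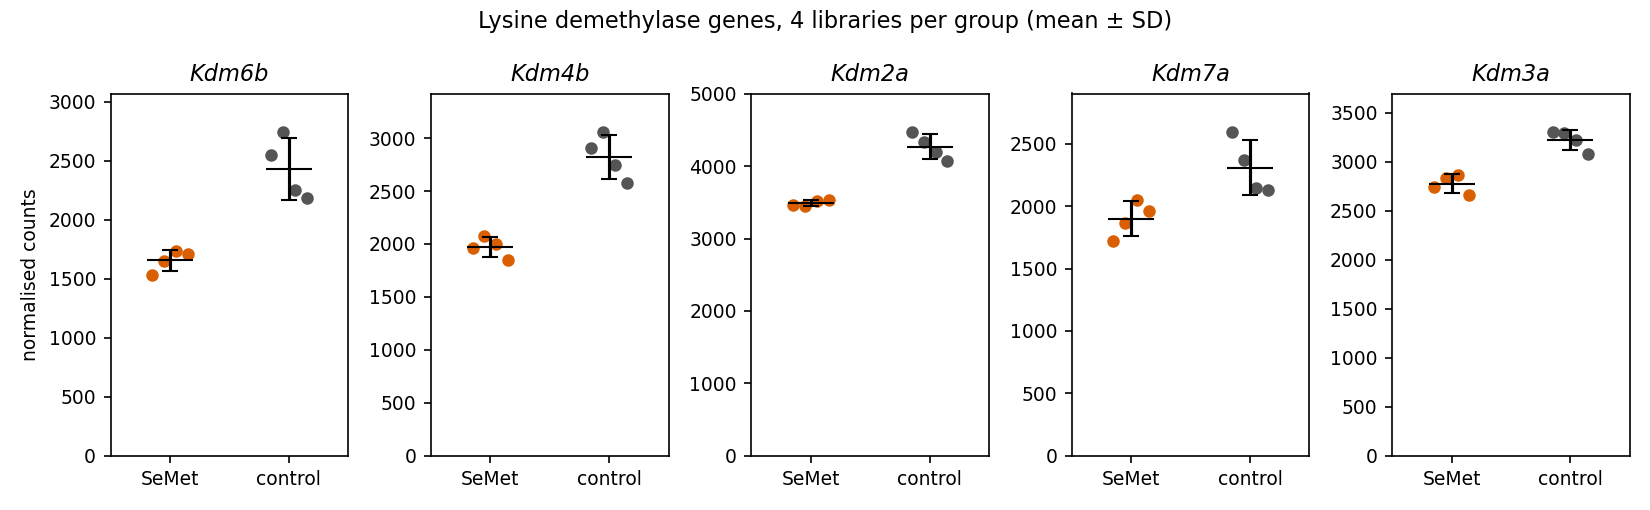
Normalised counts (y axis, from 0) of the 5 lysine demethylase genes in the 4 SeMet libraries (orange) and the 4 control libraries (grey), with mean and SD in black. In each panel all SeMet points lie below all control points; Kdm6b averages 1657 and 2432.

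Phf8 also encodes a Jumonji demethylase, for H3 lysine 9 and H4 lysine 20, although its name places it with the PHD finger genes. It held 812, 814, 987 and 941 normalised counts in SeMet libraries, against 1051, 1065, 1017 and 1024 in controls. SeMet libraries 3 and 4 came close to the controls without reaching them, and the log2 fold change was -0.23 ± 0.06. With Phf8, added to the demethylases after its values were seen, 6 of 6 such genes fell, with a median of -0.29. Targets of the hypoxia-inducible factors were lower in the same libraries. Of 27 such genes 25 were in the table and all 25 fell, with a median log2 fold change of -0.74. Ldha, which makes lactate from pyruvate, and Adm, the adrenomedullin gene, changed most, by -2.50 ± 0.15 and -1.99 ± 0.16 on the log2 scale. The summed level of the 25 genes was 145986 to 174725 normalised counts in SeMet libraries and 246873 to 290019 in controls. The list was chosen with earlier results of these data known, and its part in the change of the demethylases was not tested.

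RefSeq promoter sequences on GRCm38.p6 were available for 23 of the 29 members, with Kdm6b, Kdm4b, Kdm2a, Phf5a, Hist1h4i and Hist2h2be as the others. They were searched for GCGTG and ACGTG, the core letters that hypoxia-inducible factors recognise, on both strands over the 250 bases before the first RefSeq start given for each gene. These windows are not all upstream of the transcribed gene. In GENCODE, 11 of the 23 hold over 30 bases annotated as untranslated exon, with all bases so annotated for Prmt8 and Cbx6, and 6 lie wholly inside the gene span (Kat6b, Cbx7, Prmt8, Smarcd2, Cbx6 and Phf21b). ACGTG on both strands at once makes the E-box CACGTG, so these letters are shared with other factors. GCGTG was present in 18 of 23 members (78.3%), against 45.5% of 2517 listed genes with a promoter and 28.2% of all 27025 promoters. ACGTG was present in 5 of 23 (21.7%), against 23.0% of the listed genes and 16.6% of all promoters. Of the 9 windows that do not lie wholly inside the span and hold at most 30 untranslated bases, 7 had GCGTG and 3 ACGTG. Among these 9, the windows of Kat2b, Kdm7a and Brd1 still run partly into their genes, and the GCGTG of Kat2b lies in that part. Either motif occurred in 16 of 18 members that fell and in 3 of 5 that rose, against 56.8% of the listed genes and 38.6% of all promoters. The difference between the members that fell and rose was not tested. The median GC content of these windows was 61.2% for the members, 61.2% for the listed genes and 52.0% for all promoters. A match describes letters and not binding.

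The windows shown are those of Kat6b (chr14:21499520-21499769, plus strand), Cbx7 (chr15:79932647-79932896, minus strand) and Kmt5b (chr19:3767171-3767420, plus strand), which had the largest changes among members with a window of at most 30 untranslated bases. All 3 fell. Suv39h2, which rose, ranked between Cbx7 and Kmt5b, and its window, with 45 untranslated bases, is not shown. Capitals mark GCGTG or its reverse complement CACGC, and none of the 3 holds ACGTG. Each is written 5′ to 3′ on the strand of its gene. Other starts of these genes were not searched.
Kat6b: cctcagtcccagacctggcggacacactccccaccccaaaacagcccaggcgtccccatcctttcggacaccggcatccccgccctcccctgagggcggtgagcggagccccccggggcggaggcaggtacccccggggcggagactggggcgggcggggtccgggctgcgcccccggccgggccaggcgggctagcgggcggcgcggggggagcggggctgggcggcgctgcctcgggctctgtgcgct
Cbx7: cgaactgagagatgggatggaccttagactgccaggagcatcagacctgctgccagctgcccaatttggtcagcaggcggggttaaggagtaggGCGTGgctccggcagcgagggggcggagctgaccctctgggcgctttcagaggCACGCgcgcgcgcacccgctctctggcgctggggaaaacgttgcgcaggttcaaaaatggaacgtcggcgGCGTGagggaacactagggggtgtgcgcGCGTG
Kmt5b: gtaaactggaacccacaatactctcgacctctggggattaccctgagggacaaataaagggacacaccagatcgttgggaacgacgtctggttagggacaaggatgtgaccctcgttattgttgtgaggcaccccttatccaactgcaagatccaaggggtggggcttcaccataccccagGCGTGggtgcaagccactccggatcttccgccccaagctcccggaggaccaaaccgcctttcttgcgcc
The Cbx7 window holds GCGTG 4 times, counting both strands, the Kmt5b window once and the Kat6b window not at all. The log2 fold changes were -0.36 for Cbx7, -0.30 for Kmt5b and -0.51 for Kat6b. The Kat6b and Cbx7 windows lie wholly inside the gene span, and a link between motif count and size of change was not tested. The Kat6b window is the richest in G and C of the 3, at 78.8%, with 64.8% for Cbx7 and 56.4% for Kmt5b.

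Histone methyltransferases went both ways. Suv39h2 (ENSMUSG00000026646, chromosome 2, 3455815 to 3475031), which trimethylates H3 lysine 9 in silent heterochromatin, had 234, 217, 230 and 220 normalised counts in SeMet libraries and 178, 174, 173 and 194 in controls. All SeMet libraries were above all controls, and the log2 fold change of 0.32 ± 0.09 was the largest rise among the members. Setd7 (ENSMUSG00000037111, chromosome 3, 51515319 to 51560879), a monomethyltransferase of H3 lysine 4 and of many other proteins that is known in islets as a partner of the transcription factor Pdx1, was at 3015, 3076, 2977 and 3057 under SeMet and 2903, 2719, 2518 and 2674 in controls. It rose by 0.17 ± 0.04 on the log2 scale, with control 1 nearest to the SeMet libraries. Kmt5b (ENSMUSG00000045098, chromosome 19, 3767421 to 3818303), which places di- and trimethylation on H4 lysine 20, fell by 0.30 ± 0.05 to 1050, 1092, 1028 and 1036 normalised counts in SeMet libraries, against 1385, 1328, 1217 and 1268 in controls. Exons of other genes overlap those of 12 members. The share of the member's exons was 39.3% for Phf1, 8.55% for Prmt8 (antisense Gm42738), 8.10% for Suv39h2 (Dclre1c on the opposite strand), 6.28% for Kmt5b (antisense Gm16066), 5.31% for Cbx6 (Npcd on the same strand) and at most 4.11% for any single gene over the other 7. Of the overlapping genes only 4930599N23Rik, antisense to 2.85% of Kdm7a, is itself in the table. The sources used here do not give whether counting used strand, and without it reads of antisense pairs cannot be told apart.

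The arginine methyltransferases diverged as well. Prmt1 (ENSMUSG00000109324, chromosome 7, 44975989 to 44986568), the main enzyme of asymmetric arginine dimethylation, had 3623, 3651, 3418 and 3407 normalised counts in SeMet libraries and 2911, 2916, 2943 and 3077 in controls. The groups were well apart, and it rose by 0.25 ± 0.04 on the log2 scale. Prmt8, a membrane-bound relative best known from brain, had 1644, 1636, 1615 and 1766 under SeMet and 1933, 1741, 1952 and 1908 in controls. Its groups overlapped, since SeMet library 4 lay above control 2, and its log2 fold change was -0.18 ± 0.05. Counted by cofactor, 3 of the 5 enzymes that use S-adenosylmethionine rose and 2 fell. All 5 also passed the adjustment over all annotated genes, as did 71.4% of all listed genes. Of 21 genes of the methyl donor cycle and its branches, 3 were in the table. Srm, the spermidine synthase gene, rose by 0.26 ± 0.05 on the log2 scale, while Mat2b, a regulatory subunit of the enzyme that makes S-adenosylmethionine, and Ahcyl1 had log2 fold changes of -0.14 and -0.09 that failed over the whole annotation (limma adjusted p = 0.115 and 0.202).

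**Figure D4:**
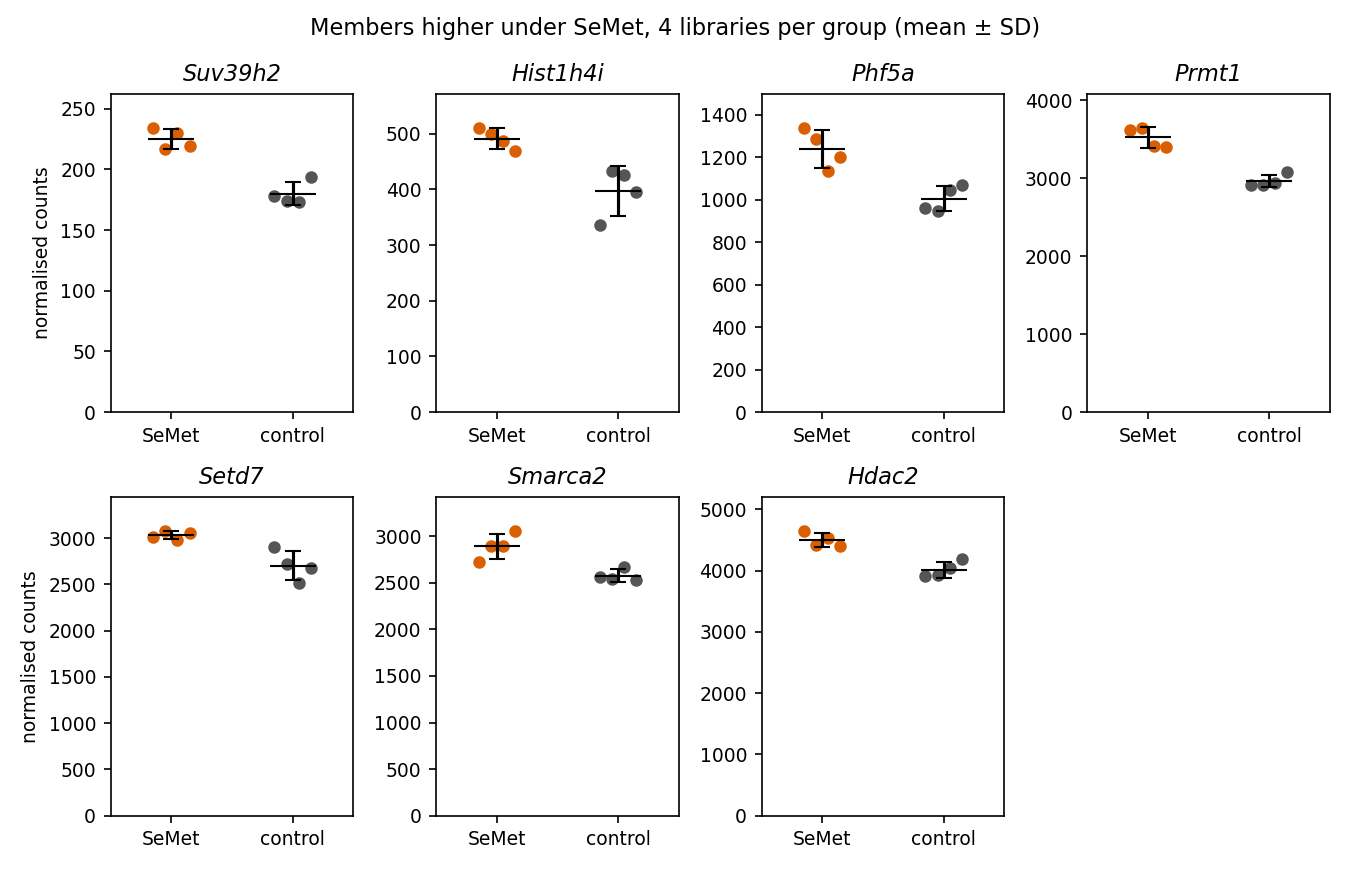
Normalised counts (y axis, from 0) of the 7 members that were higher under SeMet, in the 4 SeMet libraries (orange) and the 4 control libraries (grey), with mean and SD in black. In none of the 7 do the groups overlap; Suv39h2 averages 225 and 180.

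Both lysine acetyltransferase genes fell. Kat6b (ENSMUSG00000021767, chromosome 14, 21481434 to 21672478) encodes MORF, an acetyltransferase of histone H3. It held 500, 569, 577 and 520 normalised counts in SeMet libraries and 817, 747, 735 and 778 in controls. The groups were far apart, with a mean that fell by 29.6% under SeMet, a log2 fold change of -0.51 ± 0.06 and a limma adjusted p of 7.14e-07. Kat2b, which encodes the coactivator PCAF, was at 1575, 1535, 1448 and 1500 in SeMet libraries and 1806, 1751, 1781 and 1585 in controls. Control 4 nearly met SeMet library 1, and the log2 fold change was -0.19 ± 0.05. Brd1, a scaffold of related acetyltransferase complexes, had a log2 fold change of -0.12 ± 0.04, and Ing3, a subunit of the NuA4 complex that reads methylated H3 lysine 4, of -0.20 ± 0.06. Neither passed when adjusted over the whole annotation (limma adjusted p = 0.0765 and 0.0748).

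Other genes of acetyltransferase complexes were mixed. Of 31 on a list of further acetyltransferases and their subunits, 11 were in the table, 3 rose and 8 fell, with a median log2 fold change of -0.17. With the stricter adjustment 2 rose and 5 fell. The largest rise was in Jade3, a scaffold subunit, at 0.26 ± 0.04 on the log2 scale. Brpf3, another scaffold, fell by 0.24 ± 0.04.

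Among the deacetylases Hdac2 rose and the other members fell. Hdac2 (ENSMUSG00000019777, chromosome 10, 36974544 to 37001889), a nuclear class I enzyme of the Sin3, NuRD and CoREST corepressors, had 4646, 4427, 4533 and 4403 normalised counts under SeMet and 3908, 3927, 4045 and 4188 in controls. The groups did not overlap and the log2 fold change was 0.16 ± 0.04. Hdac6 (ENSMUSG00000031161, chromosome X, 7930120 to 7947889), a mainly cytoplasmic enzyme that deacetylates tubulin, was at 8661, 8728, 9054 and 8835 in SeMet libraries, against 10417, 10669, 10445 and 9914 in controls. It fell by 0.23 ± 0.03 on the log2 scale (limma adjusted p = 1.27e-05). Per kilobase of annotated exon it was the most abundant member, at 1516 normalised counts per kilobase in SeMet cells and 1781 in controls. Sirt2, a sirtuin that also acts on tubulin in the cytoplasm, fell by 0.16 ± 0.04 on the log2 scale to 1426 ± 66.0 normalised counts, against 1594 ± 18.5 in controls. Hdac5, a class IIa enzyme that shuttles out of the nucleus on phosphorylation and restrains MEF2 factors, had a log2 fold change of -0.13 ± 0.04 that failed over the whole annotation (limma adjusted p = 0.0652). Of 23 corepressor subunits that work with deacetylases 4 were in the table, 1 higher and 3 lower, or 1 and 2 over all annotated genes. Gatad2a, a NuRD subunit, rose by 0.20 ± 0.04 on the log2 scale. Mta1, of NuRD, and Rcor1, of CoREST, both named after their values were seen, fell by 0.18 ± 0.04 and 0.16 ± 0.04, and Tbl1xr1 was at 823 and 935 normalised counts in SeMet and control cells (limma adjusted p over all annotated genes = 0.0945).

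Cbx7, Cbx6 and Phf1, 3 of the 9 readers and adaptor subunits, encode Polycomb proteins and were lower. Cbx7 (ENSMUSG00000053411, chromosome 15, 79915807 to 79971119), a chromodomain subunit of Polycomb repressive complex 1 that binds methylated H3 lysine 27, had 1269, 1316, 1348 and 1269 normalised counts in SeMet libraries and 1683, 1595, 1690 and 1717 in controls. The gap between the groups was wider than the spread within either, and the log2 fold change was -0.36 ± 0.04 (limma adjusted p = 1.01e-06). Cbx6, its relative and chromosomal neighbour (79823896 to 79834688), was far more abundant, at 779 normalised counts per kilobase under SeMet and 858 in controls, while Cbx7 stood at 200 and 258 per kilobase. Its 8300, 8267, 8058 and 8426 normalised counts in SeMet libraries lay just below the 9155, 9696, 9037 and 8540 of the controls, with a log2 fold change of -0.14 ± 0.04. Phf1, an accessory subunit of Polycomb repressive complex 2, fell by 0.26 ± 0.05 to 1041 ± 12.2, against 1252 ± 74.4 in controls. The overlap of Phf1 is with Cuta, on the opposite strand, so its value is uncertain.

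Of 27 other Polycomb genes 4 were in the table, 1 higher and 3 lower, with a median log2 fold change of -0.16. Bmi1, which encodes a core subunit of Polycomb repressive complex 1, fell by 0.33 ± 0.04 to 2128 normalised counts, against 2674 in controls. Rbbp7, a histone-binding subunit shared by several complexes, rose by 0.21 ± 0.04. Among 26 other lysine methyltransferases and their COMPASS partners only Smyd3 and Ehmt2 were in the table. Their log2 fold changes of -0.17 ± 0.05 and -0.10 ± 0.04 failed over the whole annotation (limma adjusted p = 0.0761 and 0.165).

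The remaining PHD finger genes split. Phf5a (ENSMUSG00000061360, chromosome 15, 81864520 to 81871911), whose product is a subunit of the SF3b splicing complex and no histone modifier, rose by 0.30 ± 0.06 on the log2 scale. It held 1340, 1285, 1134 and 1204 normalised counts under SeMet and 961, 948, 1046 and 1069 in controls, and SeMet library 3 and control 4 were the nearest pair. Phf20, a reader in an acetyltransferase complex, fell by 0.14 ± 0.04, with SeMet libraries between 2005 and 2028 and controls between 2158 and 2303. Phf21b had a log2 fold change of -0.13 ± 0.04, which passed over the listed genes and failed over the whole annotation (limma adjusted p = 0.122) and under median-ratio scaling (limma adjusted p = 0.0574).

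Of the remodelling genes Smarca2 rose and Smarcd2 was lower. Smarca2 (ENSMUSG00000024921, chromosome 19, 26605050 to 26778322), which encodes BRM, a catalytic ATPase of the BAF complex, had 2727, 2898, 2893 and 3054 normalised counts in SeMet libraries and 2563, 2540, 2674 and 2532 in controls, a log2 fold change of 0.17 ± 0.04 with groups that nearly met at SeMet library 1. Smarcd2, an accessory BAF subunit, was at 827, 797, 811 and 831 under SeMet and 896, 867, 926 and 931 in controls. Its log2 fold change of -0.15 ± 0.05 failed over the whole annotation (limma adjusted p = 0.108) and under median-ratio scaling (limma adjusted p = 0.0512). Of 28 other remodeller subunits 6 were in the table, 4 higher and 2 lower, or 1 and 1 over all annotated genes. Dpf3, a PHD finger subunit of BAF, changed most, with 563 normalised counts in SeMet cells, 409 in controls and a log2 fold change of 0.46 ± 0.07. Ss18, another BAF subunit, fell by 0.16 ± 0.04.

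Of the clustered histone genes, Hist1h4i (ENSMUSG00000060639, chromosome 13, 22040636 to 22041362), 1 of many genes for histone H4, had 511, 499, 487 and 469 normalised counts under SeMet and 336, 434, 426 and 395 in controls. It rose by 0.31 ± 0.07 on the log2 scale, with control 1 well below the other controls. Hist2h2be (chromosome 3, 96221119 to 96223738), which encodes an H2B variant known from olfactory neurons in mouse, was at 219, 278, 258 and 263 in SeMet libraries and 317, 294, 310 and 300 in controls. SeMet library 1 was the lowest, and the log2 fold change of -0.27 ± 0.08 failed over the whole annotation (limma adjusted p = 0.0814). Histone genes share nearly identical coding sequence, so their reads could be split between copies, and most histone messages lack a poly(A) tail, while the sources used here do not give how RNA was selected. Both values are therefore uncertain.

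Histone chaperones went both ways, while the listed markers of DNA replication and mitosis rose. Of 16 histone variants outside the clusters 3 were in the table, 2 higher and 1 lower, or 0 and 1 over all annotated genes. The linker histone gene H1f0, typical of cells that leave the cycle, fell by 0.31 ± 0.04 to 5981 normalised counts, against 7405 in controls. Cenpa, the centromeric H3 variant, was at 1394 and 1257 in SeMet and control cells (limma adjusted p over all annotated genes = 0.127). Of 25 histone chaperones 6 were listed, 2 higher and 4 lower under both adjustments. Chaf1b, a subunit of the chromatin assembly factor that follows replication forks, rose by 0.24 ± 0.05 on the log2 scale, and Nap1l3 fell by 0.24 ± 0.05. Of 32 markers of DNA replication and mitosis 19 were in the table and all 19 rose, with a median log2 fold change of 0.19. Over all annotated genes 12 of these 19 passed, against 71.4% of all listed genes. Gins1, a subunit of the replicative helicase, rose by 0.39 ± 0.09 on the log2 scale. Mki67, which encodes the proliferation antigen Ki-67, had a log2 fold change of 0.33 ± 0.11 that failed over the whole annotation (limma adjusted p = 0.315). The summed level of the 19 markers was 59301 to 60399 normalised counts in SeMet libraries and 52539 to 53074 in controls, and its part in the changes of Hist1h4i, Suv39h2 and Chaf1b was not tested. Among 15 further genes of DNA methylation and demethylation 5 were listed, 2 higher and 3 lower, or 1 and 1 over all annotated genes. The largest changes were those of Gadd45a, which rose by 0.47 ± 0.06, and Gadd45b, which fell by 0.47 ± 0.09 to 230 normalised counts, against 318 in controls.

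Members were spread over 12 chromosomes. Chromosome 15 held 5 of the 29 (Brd1, Cbx6, Cbx7, Phf5a and Phf21b), or 17.2%, against 4.18% of all listed genes, and 4 of these 5 fell. Chromosome 6 held 4, or 13.8%, against 5.13% of all listed genes, and all of Kdm3a, Kdm7a, Prmt8 and Ing3 fell. Of all 29 members 75.9% fell, and grouping by chromosome was not tested. The annotated exons of the members that fell had a median combined length of 6720 bases, those of the members that rose 4410 bases and those of all listed genes 4630 bases.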

How the data were processed

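RNA sequencing libraries of MIN6-K8 cells (4 SeMet, 4 control, grouped by sample title) were analysed from 1 deposited table. The submitters' processing notes name STAR for alignment, featureCounts for counting and the build mm10. The sources used here do not give versions, settings, annotation, the scaling tool or the rule that selected the listed genes. As deposited, the values form a signal by gene and library, in which all values were whole multiples of 1 step per library (tolerance 0.001 reads; steps 0.885 to 1.15), so they are read as counts divided by a size factor. Depth is known only within the listed genes. The recovered reads failed a check on low values in most libraries, so no count test was run.

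Symbols, positions and exon lengths came from GENCODE M21 (GRCm38, the assembly of mm10), which matched 3276 of 3278 identifiers. The fit used limma 3.58.1 (R 4.3.3, statmod 1.5.0) on log2(value + 1), with trended, robust variance, treatment as its single term and no filter. P-values had the Benjamini-Hochberg adjustment over all listed genes, with a threshold of 0.05. A stricter adjustment set every unlisted gene of 55450 to a p of 1. The script was tested on simulated data in which only a small part of the genes changed. In this table nearly all genes passed, so that test does not cover the setting used. Alternatives were other pseudocounts (0.5 and 8), median-ratio rescaling, a minimum mean of 50, plain limma, a replicate block and leaving out each library. All 29 members exceed that minimum.

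Named were, per role, the 3 largest changes and the highest level, and the 10 largest changes overall (22 genes). The other 7 are given so that every member is accounted for. From each other list the 2 largest changes were named, with a few further genes. Promoters were taken as the first RefSeq window of a gene and printed for the largest changes, except where over 30 bases were annotated as untranslated (Suv39h2). The members and lists were chosen with earlier results of these data known.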

Additional observations from a re-analysis of the deposited data

Results flagged for a closer look

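Of 58 groups of 4 libraries (29 members, 2 groups each), 1 held a library far from the others, and chance flags about 1 in 20 such groups. For Phf21b, a PHD finger gene, control 4 was at 1781 normalised counts, while the other controls lay between 1890 and 1912. The gap was 0.830 of the range of the controls. Control 4 was still above the SeMet libraries, and without it Phf21b stayed lower under SeMet.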

How the results depend on the processing

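Every one of the 29 members kept its direction under all 15 alternatives, and 427 of 435 combinations of member and alternative kept the call too. The 8 lost calls were Brd1, Hdac5, Hist2h2be, Ing3, Phf21b and Smarcd2 with the adjustment over all annotated genes and Phf21b and Smarcd2 after rescaling by the median ratio, under which the median log2 fold change of all listed genes was -0.08 instead of -0.13. Among role groups, 1 of 2 remodeller genes passed after that rescaling and 1 of 2 with the adjustment over all annotated genes, under which also 1 of 2 histone genes passed. Leaving out each library in turn kept all 29 calls. So it did for nearly every listed gene, with 3260 to 3269 of 3278 passing, so this stability is not particular to these families. The number of members past 1.5-fold, 0 with all libraries, ranged from 0 to 1; the 1, without control 4, was Kdm6b, with a log2 fold change of -0.60. Whether replicate numbers pair the samples could not be settled from these values. Same-numbered libraries had correlations of their deviations of 0.01, 0.15, 0.02 and -0.01, and the other combinations ranged from -0.14 to 0.14. With the replicate block 29 members passed, 7 higher and 22 lower, as did 3272 of the 3278 listed genes. Genes outside the table and total library sizes set the limits of what can be said, as the table holds only selected genes.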
